A study of Mus musculus with 6 samples.

Results

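The Wnt ligand genes *Wnt3*, *Wnt3a*, *Wnt4*, *Wnt5a*, *Wnt5b*, *Wnt6*, *Wnt8a*, *Wnt10a* and *Wnt11* were followed in neuromesodermal progenitors (NMPs) exposed briefly to retinoic acid (RA). They were taken by symbol, summing all transcripts of each, and are 9 of the 20631 genes in the files and 9 of the 19 members of the Wnt family listed there. NMPs are caudal progenitors whose progeny form spinal cord as well as presomitic mesoderm, and RA is the vitamin A derivative that binds nuclear receptors to control transcription. The cells came from mouse embryonic stem cells (ESCs), whose strain the labels give as 129 R1 and the methods as C57BL/6, and which had been kept on inactivated fibroblast feeders with LIF before differentiation without feeders. All 3 conditions shared 2 days in bFGF followed by 1 day in bFGF with CHIR99021, a GSK3 inhibitor that acts as a WNT agonist, all in retinoid-free N2B27 medium. Both factors were then taken away and the cells were kept for 2 h with DMSO as vehicle, with 25 nM RA or with 1 µM RA, 2 samples per condition. The duplicates were cells of separate dishes, called technical replicates in the methods, so that the p-values below measure only the spread between dishes of 1 experiment.

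Wnt proteins are secreted, lipid-modified ligands that bind Frizzled receptors. Canonical Wnts also engage LRP5 or LRP6, which stops the degradation of beta-catenin and lets it enter the nucleus to act with TCF/LEF factors, whereas other Wnts signal mainly through ROR or RYK receptors to steer cell shape and movement. In the caudal embryo, Wnt signals keep NMPs in being and favour their mesodermal progeny, and RA made by the mesoderm acts on the same cells.

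Total estimated counts were between 31753556 and 42029348 per sample. The RA treatment showed in known RA targets. *Rarb*, a retinoic acid receptor gene, had 0.237 ± 0.0322 RPKM under DMSO (mean ± SD, n = 2), 5.28 ± 0.440 at 25 nM and 6.77 ± 0.171 at 1 µM RA. RPKM are reads scaled by transcript length and by the mapped reads of the sample. Of the 7 NMP markers, *T* lay between 366.9 and 380.1 RPKM in the 6 samples, *Sox2* and *Nkx1-2* were called higher at both doses and *Cdx2* at 25 nM RA, *Sp5* and *Fgf8* were called lower at both doses, and *T* and *Fgf17* were not called. *Sox2* had 5.20 ± 0.00892 RPKM in DMSO and 15.4 ± 0.199 and 16.3 ± 1.35 RPKM with RA. Of the 6 ESC markers, *Pou5f1* lay between 432.1 and 470.5 RPKM, *Nanog* between 18.1 and 20.8 and *Zfp42* between 4.55 and 5.83, while *Klf4*, *Esrrb* and *Tbx3* stayed at or below 0.614 RPKM, and *Tbx3* alone was called, higher at both doses. Of the 5 neural markers, *Tubb3* lay between 9.88 and 11.6 RPKM and *Sox1*, *Dcx*, *Pax6* and *Neurog2* at or below 0.245 RPKM, and *Tubb3* and *Dcx* were called lower at 1 µM RA. Feeder fibroblast markers summed to 5.92 to 6.24 RPKM in DMSO, 5.79 to 6.02 at 25 nM and 5.24 to 5.40 at 1 µM RA over 6 genes, of which 3 were called lower at 1 µM RA and none at 25 nM RA. TMM normalization factors lay between 0.989 and 1.01.

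The 9 ligands differed widely in level. In DMSO, *Wnt8a* was the most abundant with 21.4 ± 0.568 RPKM, followed by *Wnt5b* with 13.3 ± 0.376, *Wnt3* with 9.33 ± 0.292, *Wnt3a* with 7.42 ± 0.139, *Wnt5a* with 7.21 ± 0.227 and *Wnt6* with 3.17 ± 0.191 RPKM. *Wnt11* with 1.09 ± 0.0349, *Wnt4* with 0.741 ± 0.0278 and *Wnt10a* with 0.578 ± 0.135 RPKM closed the order. The values of *Wnt3a* and *Wnt5a* overlapped, and no other neighbours in this order did. With RA, *Wnt3a* stood above *Wnt3*, and no neighbours overlapped at either dose. Levels on library sizes scaled by TMM gave every ligand the same place. The 9 ligands made up 90.8 to 93.3% of the summed RPKM of all 19 Wnt genes, so that few Wnt transcripts came from elsewhere in the family.

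**Figure D1:**
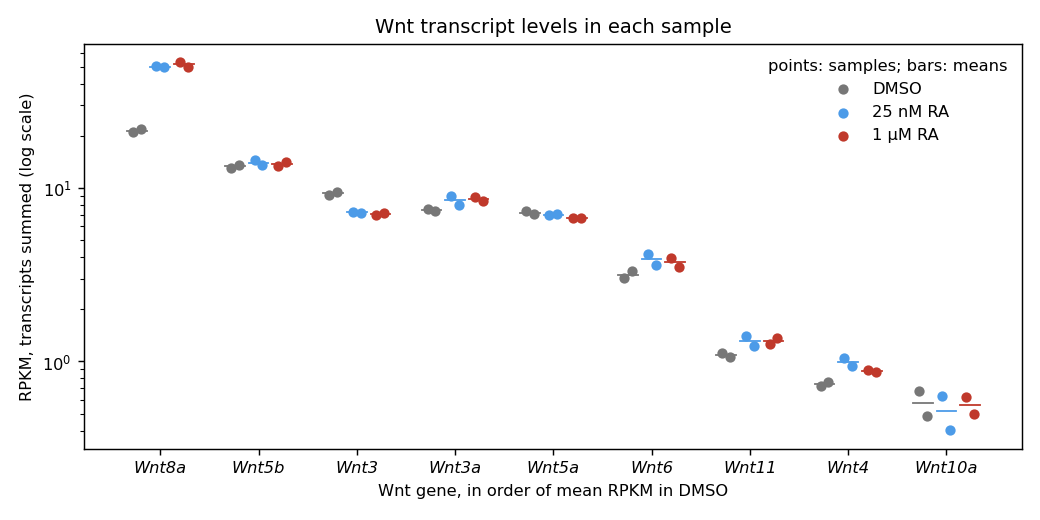
RPKM (log scale, transcripts of a gene summed) of each of the 9 Wnt ligands in the 2 DMSO samples, the 2 samples with 25 nM RA and the 2 samples with 1 µM RA; points are samples and bars are means. *Wnt8a* stands at 21.0 and 21.8 RPKM in DMSO and between 49.7 and 53.0 RPKM in the 4 samples with RA, and *Wnt3* is lower in each of those 4 samples than in either DMSO sample.

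The first question was which ligands respond within 2 h of RA. *Wnt8a* rose strongly at both doses and *Wnt3* fell, while *Wnt3a* rose slightly. *Wnt4* and *Wnt6* rose at 25 nM RA and did not pass the test at 1 µM RA, although the difference between the doses did not pass either, and *Wnt5a*, *Wnt5b*, *Wnt10a* and *Wnt11* did not pass it at either dose. The test was the likelihood ratio test of edgeR on summed estimated counts, and a gene was called at an adjusted p (FDR) under 0.1 over the 15143 genes tested, among which were all 9 ligands. At 25 nM RA 4 of the 9 ligands were called higher, where 4.5% of all genes tested were, and 1 lower, where 3.55% were. At 1 µM RA 2 were called higher against 8.54% of all genes and 1 lower against 11.2%. Both comparisons rest on the same 2 DMSO samples, so that they are not independent of each other. RPKM of the RA and DMSO samples did not overlap for 6 ligands at 25 nM RA and 7 at 1 µM RA, but such separation was found in 44.4% and 54.4% of all genes tested. The median log2 fold change (logFC) of the 9 ligands was 0.18 at 25 nM and 0.21 at 1 µM RA, where that of all genes tested was -0.0005 and 0.0013. In bulk RNA, more cells that express a gene and more transcript per cell cannot be told apart.

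*Wnt8a*, a canonical ligand of the primitive streak and caudal epiblast, carried the largest change. Its single transcript in the files (NM_009290) lies on the mm10 chromosome 18, plus strand, 34542328 to 34548061. The DMSO samples had 21.0 and 21.8 RPKM of *Wnt8a*, against 50.3 and 49.7 at 25 nM and 53.0 and 50.1 at 1 µM RA. The 4 samples with RA lay close together and far above both controls. The estimated counts behind these values were 1644 and 1402 in DMSO, 2938 and 3653 at 25 nM and 3492 and 3343 at 1 µM RA. At 25 nM RA the level was 2.33-fold that in DMSO, a logFC of 1.22 with a standard error (SE) of 0.057 and an adjusted p of 1.83e-99 by edgeR's likelihood ratio test (1.12e-11 by edgeR's quasi-likelihood test). At 1 µM RA it was 2.39-fold, a logFC of 1.26 with an SE of 0.057 and an adjusted p of 1.08e-106 by the same test (6.11e-12 by the quasi-likelihood test). When a minimum size was added to the call (logFC above 1 with over 1 RPKM in RA, or logFC below -0.6 with over 7 RPKM in DMSO), *Wnt8a* was the sole ligand that passed, in the upward direction at both doses, where 0.442% and 0.568% of all genes passed. No ligand passed in the downward direction, where 0.033% and 0.139% of all genes did. The rise of *Wnt8a* in these cells runs opposite to embryos, where the paper counts it among genes earlier found repressed by RA. The reason for this difference was not tested.

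Because the other ligands moved little, *Wnt8a* changed the composition of the whole set. Its share of the summed RPKM of the 9 ligands was 33.0 and 33.6% in DMSO, 52.9 and 54.2% at 25 nM and 55.4 and 53.9% at 1 µM RA. The sum itself was 64.3 ± 0.919 RPKM in DMSO, 93.5 ± 2.38 at 25 nM and 94.2 ± 1.91 at 1 µM RA. Without *Wnt8a* it was 42.9 ± 0.354, 43.5 ± 1.99 and 42.7 ± 0.141 RPKM, so that the remaining 8 ligands together differed between conditions by less than the spread of the 25 nM RA duplicates. No test was made on these sums.

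**Figure D2:**
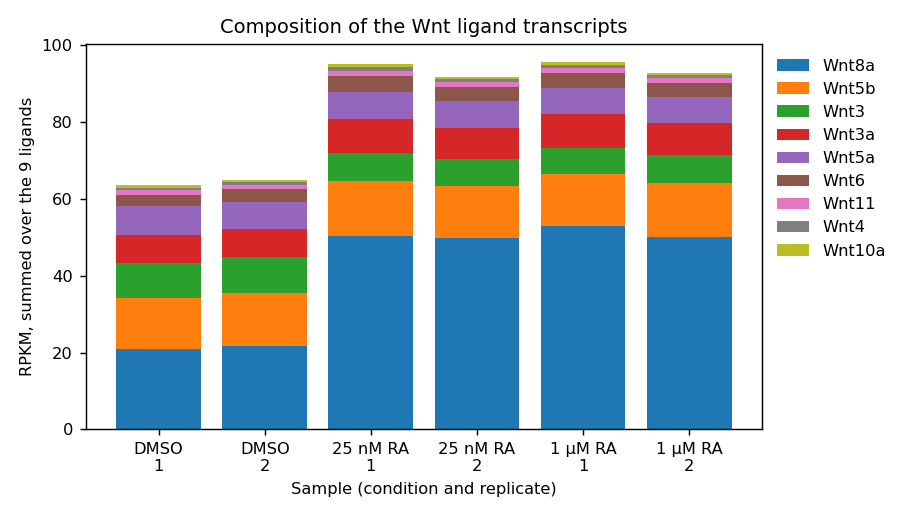
Summed RPKM of the 9 Wnt ligands in each of the 6 samples, stacked by gene. The *Wnt8a* block grows from 33.0 and 33.6% of the bar in DMSO to between 52.9 and 55.4% with RA, while the blocks of the other ligands together stay between 42.1 and 44.9 RPKM.

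*Wnt3* and *Wnt3a* encode closely related canonical ligands. *Wnt3* is needed to form the primitive streak, and *Wnt3a* to maintain caudal progenitors and paraxial mesoderm. They moved in opposite directions under RA. *Wnt3* (NM_009521, mm10 chromosome 11, plus strand, 103774175 to 103818021) had 9.13 and 9.54 RPKM in DMSO, 7.27 and 7.18 at 25 nM and 6.95 and 7.22 at 1 µM RA. Both DMSO samples lay above all 4 RA samples. Its level was 1.29-fold lower at 25 nM RA (logFC -0.37, SE 0.061, adjusted p = 7.41e-08 by edgeR's likelihood ratio test) and 1.32-fold lower at 1 µM RA (logFC -0.40, SE 0.061, adjusted p = 1.79e-09). The adjusted p was 2.22e-04 and 5.07e-05 by edgeR's quasi-likelihood test and, by DESeq2, 2.65e-04 and 2.58e-05.

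*Wnt3a* (NM_009522, mm10 chromosome 11, minus strand, 59248042 to 59290751) had 7.52 and 7.32 RPKM in DMSO, 8.95 and 8.01 at 25 nM and 8.82 and 8.45 at 1 µM RA. The RA samples all lay above the DMSO samples, by a small margin. The level was 1.14-fold that in DMSO at 25 nM RA (logFC 0.18, SE 0.068, adjusted p = 0.0893 by edgeR's likelihood ratio test) and 1.16-fold at 1 µM RA (logFC 0.21, SE 0.068, adjusted p = 0.0168). The quasi-likelihood test of edgeR gave an adjusted p of 0.117 and 0.0299, and DESeq2 0.507 and 0.129. The call at 25 nM RA was lost when any 1 of 3 samples was left out, and the adjusted p was 0.289 without DMSO replicate 1, 0.41 without DMSO replicate 2 and 0.654 without 25 nM RA replicate 1. The call at 1 µM RA was lost without DMSO replicate 2 (adjusted p = 0.146) and without 1 µM RA replicate 1 (adjusted p = 0.181), all by edgeR's likelihood ratio test.

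The order of this pair differed between DMSO and RA. The ratio of *Wnt3a* to *Wnt3*, in RPKM, was 0.824 and 0.768 under DMSO, 1.23 and 1.12 at 25 nM and 1.27 and 1.17 at 1 µM RA. It was below 1 in both controls and above 1 in all 4 RA samples. The ratio of *Wnt8a* to *Wnt3* was 2.30 and 2.29 in DMSO and between 6.92 and 7.62 with RA. No test was made on ratios between genes.

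The start regions of this pair are shown because the genes are close relatives that moved in opposite directions. The sequences are from RefSeq (GRCm38.p6, the mm10 build) and run from 250 bases before to 50 bases after the annotated start, 5′ to 3′ on the gene's strand. A capital marks the first transcribed base, and the run of 7 capitals in *Wnt3* marks a match to the TCF/LEF motif. The *Wnt3* window is chr11:103773925-103774224 on the plus strand and the *Wnt3a* window chr11:59290702-59291001 on the minus strand.
Wnt3: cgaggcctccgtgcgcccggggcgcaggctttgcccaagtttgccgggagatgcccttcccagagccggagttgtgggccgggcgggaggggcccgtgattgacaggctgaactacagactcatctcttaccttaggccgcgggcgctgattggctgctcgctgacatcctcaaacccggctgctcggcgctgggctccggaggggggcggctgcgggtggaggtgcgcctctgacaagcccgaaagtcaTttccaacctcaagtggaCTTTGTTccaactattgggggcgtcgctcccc
Wnt3a: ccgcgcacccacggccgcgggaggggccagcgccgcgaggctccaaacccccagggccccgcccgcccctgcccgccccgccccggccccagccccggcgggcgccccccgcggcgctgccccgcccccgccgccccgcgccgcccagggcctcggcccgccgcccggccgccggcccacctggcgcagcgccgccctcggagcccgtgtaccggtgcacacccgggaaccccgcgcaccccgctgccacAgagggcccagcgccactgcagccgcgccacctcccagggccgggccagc
The window of *Wnt3* is 65.7% G or C with 24 CpG dinucleotides, and that of *Wnt3a* is 86.3% G or C with 45. The TCF/LEF motif searched was CTTTGNN on either strand, each N being A or T, and the match in *Wnt3* begins at position 19, counting the first transcribed base as 1. The motif was present in 16.9% of the 32851 promoter windows of this length, and in 3 of the 9 windows matched to 6 of the ligands (1 each of *Wnt3*, *Wnt5b* and *Wnt11*). No such match lies in the windows of *Wnt3a*, *Wnt4* or *Wnt6*. A retinoic acid response element was searched as 2 half-sites in direct repeat, each NGNTCA with A or G at the first N and G or T at the other, separated by 1, 2 or 5 bases, on both strands. It was found in 0.222, 0.268 and 0.0974% of all windows and in none of the 9 windows of the ligands, which says only that these letters are not in those stretches. No windows of *Wnt5a*, *Wnt8a* and *Wnt10a* were searched, so that nothing is known here of either motif at their starts.

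*Wnt4* and *Wnt6*, which are best known from kidney and reproductive tract development and from ectoderm and somite formation respectively, were called at the lower dose. *Wnt4* (NM_009523, mm10 chromosome 4, plus strand, 137277635 to 137299501) had 0.721 and 0.761 RPKM in DMSO, 1.05 and 0.941 at 25 nM and 0.892 and 0.869 at 1 µM RA. The RA samples lay above the DMSO samples at both doses, and those with 25 nM RA lay highest. The logFC was 0.42 at 25 nM RA (SE 0.131, adjusted p = 0.0273 by edgeR's likelihood ratio test, 0.0687 by its quasi-likelihood test and 0.518 by DESeq2). At 1 µM RA it was 0.24 (SE 0.134, adjusted p = 0.23), with a 95% interval of -0.02 to 0.51. Only 123 to 174 estimated counts per sample stand behind *Wnt4*, and the call at 25 nM RA was lost without DMSO replicate 1 (adjusted p = 0.282) and without 25 nM RA replicate 1 (adjusted p = 0.284), by edgeR's likelihood ratio test.

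*Wnt6* (NM_009526, mm10 chromosome 1, plus strand, 74771892 to 74785319) had 3.03 and 3.30 RPKM in DMSO, 4.15 and 3.62 at 25 nM and 3.94 and 3.52 at 1 µM RA. All RA samples were above both DMSO samples. The logFC was 0.29 at 25 nM RA (SE 0.102, adjusted p = 0.0715 by edgeR's likelihood ratio test, 0.125 by its quasi-likelihood test and 0.571 by DESeq2) and 0.23 at 1 µM RA (SE 0.103, adjusted p = 0.114). The call at 25 nM RA was lost without DMSO replicate 1 (adjusted p = 0.543), without DMSO replicate 2 (adjusted p = 0.1003) and without 25 nM RA replicate 1 (adjusted p = 0.54), by edgeR's likelihood ratio test. Without 1 µM RA replicate 2, *Wnt6* passed at 1 µM RA (adjusted p = 0.0522 by the same test). An annotated antisense gene, *Gm29539*, overlaps *Wnt6*, and the libraries kept strand, but whether the counting used it is not given in the sources used here. Reads of the 2 cannot be told apart if it did not.

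By the other tests fewer ligands passed. The quasi-likelihood test called *Wnt3*, *Wnt4* and *Wnt8a* at 25 nM RA and *Wnt3*, *Wnt3a* and *Wnt8a* at 1 µM RA, where it called 6.91% and 19.2% of all genes in either direction. DESeq2 called *Wnt3* and *Wnt8a* at each dose, where it called 3.9% and 11.7%.

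**Figure D3:**
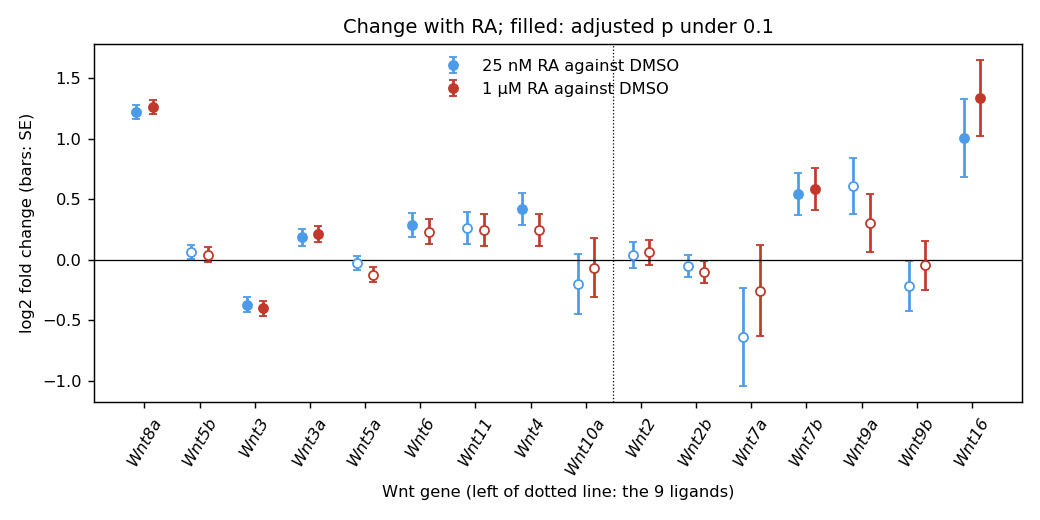
LogFC of each Wnt gene that passed the filter on low counts, at 25 nM and at 1 µM RA against DMSO; bars are standard errors of the fit, and filled points have an adjusted p under 0.1. *Wnt8a* lies at 1.22 and 1.26 and *Wnt3* at -0.37 and -0.40, and the points of the 2 doses lie within each other's bars for most ligands.

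*Wnt5a*, *Wnt5b* and *Wnt11* encode ligands that act mainly without beta-catenin, in the movements that lengthen the body axis. *Wnt5b* (minus strand of chromosome 6 from 119432531 to 119544347) had 13.1 and 13.6 RPKM in DMSO, 14.4 and 13.5 at 25 nM and 13.4 and 14.2 at 1 µM RA. These ranges overlapped, and the logFC was 0.06 (SE 0.06, adjusted p = 0.761 by edgeR's likelihood ratio test, 95% interval -0.06 to 0.18) at 25 nM RA and 0.04 (SE 0.06, adjusted p = 0.727, interval -0.08 to 0.16) at 1 µM RA. Both intervals leave out a change of the size seen for *Wnt3*. *Wnt5a* (plus strand of chromosome 14 from 28505473 to 28525515) had 7.37 and 7.05 RPKM in DMSO, 6.95 and 7.11 at 25 nM and 6.69 and 6.72 at 1 µM RA. Its samples with 1 µM RA lay just below the rest. The logFC was -0.03 at 25 nM RA (SE 0.059, adjusted p = 0.924 by edgeR's likelihood ratio test) and -0.12 at 1 µM RA (SE 0.06, adjusted p = 0.158). With libraries scaled by total counts in place of TMM, the latter was -0.14 and passed with an adjusted p of 0.0852.

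*Wnt11* (plus strand of chromosome 7 from 98835112 to 98854747) had 1.12 and 1.07 RPKM in DMSO, 1.41 and 1.23 at 25 nM and 1.26 and 1.36 at 1 µM RA. Every RA sample lay above both DMSO samples. With 126 to 167 estimated counts per sample, the logFC of 0.26 (SE 0.132, adjusted p = 0.32 by edgeR's likelihood ratio test) and 0.25 (SE 0.132, adjusted p = 0.213) did not pass. *Wnt10a* (NM_009518, plus strand of chromosome 1 from 74792019 to 74804175), a canonical ligand of skin and tooth buds, had 0.673 and 0.482 RPKM in DMSO, 0.636 and 0.401 at 25 nM and 0.623 and 0.499 at 1 µM RA. The duplicates differed by more than the conditions. Only 38 to 68 estimated counts per sample lie behind *Wnt10a*, and the 95% interval of its logFC, -0.69 to 0.29 at 25 nM RA and -0.55 to 0.42 at 1 µM RA, leaves a change as large as that of *Wnt3* undetectable at this depth.

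The 3 non-canonical ligands are the ones with several RefSeq transcripts in the files, and the split of reads among these is an estimate. In *Wnt5b*, NM_001271757 took 68.9 to 77.6% of the RPKM of the gene, NM_001271758 20.7 to 26.8% and NM_009525, which starts farthest upstream, 0.689 to 4.47%. In *Wnt5a*, NM_009524 took 49.96 to 70.5% and NM_001256224 the rest. The split of *Wnt11* was unsteady. NM_001285794 took 40.3% in one DMSO sample and 82.8% in the other, 9.31 and 27.0% at 25 nM and 48.0 and 21.7% at 1 µM RA, while NM_009519 took 46.2 and 14.2%, 66.2 and 62.6%, and 48.8 and 75.5%. The summed level of *Wnt11* moved far less, between 1.07 and 1.41 RPKM. When the transcripts of these 3 genes were fitted singly, their adjusted p was 0.165 or more at both doses by edgeR's likelihood ratio test, with 1 transcript of *Wnt11* left untested by the filter. *Fbxl14* lies within *Wnt5b* on the opposite strand, *Gm2670* is annotated antisense to *Wnt5a* and the pseudogene *Gm8398* overlaps the end of *Wnt11* on the opposite strand, so that the same limit on strand applies.

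**Figure D4:**
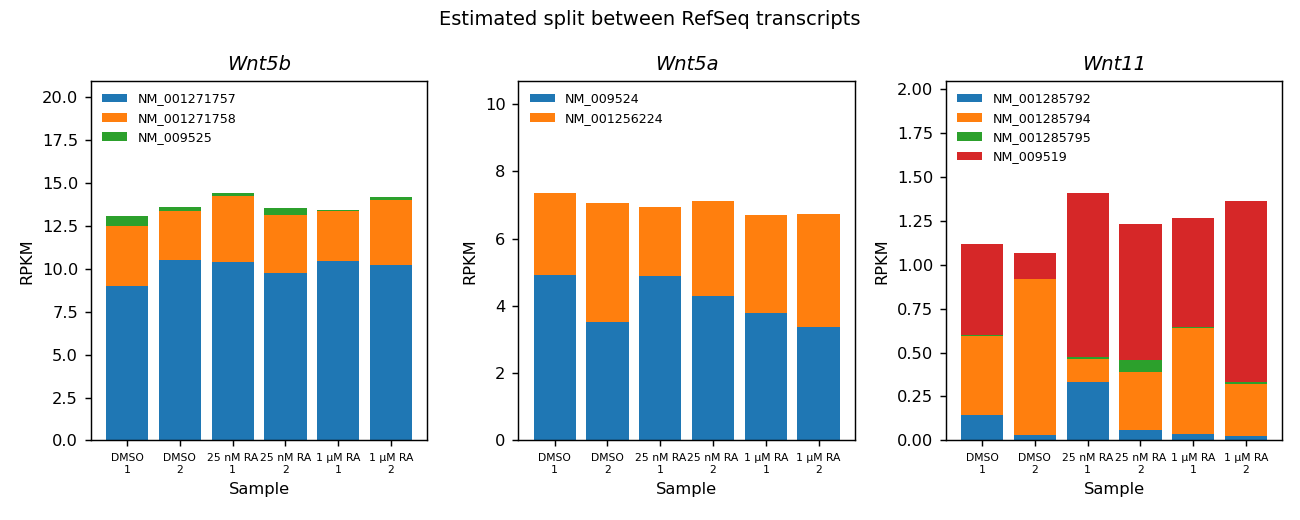
RPKM of each RefSeq transcript of *Wnt5b*, *Wnt5a* and *Wnt11* in the 6 samples, stacked, on a separate linear axis for each gene. The split is steady for *Wnt5b*, where NM_001271757 holds 68.9 to 77.6%, and unsteady for *Wnt11*, where NM_001285794 holds 9.31 to 82.8%.

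The second question was whether the higher dose moved the ligands further. No ligand was called in the direct contrast, in which 3.41% of all genes were, so that a count of 0 among 9 is near the background. The count was 0 of 9 also with unadjusted p under 0.05, and again with edgeR's quasi-likelihood test and with DESeq2. The logFC of 1 µM over 25 nM RA was 0.04 for *Wnt8a* (95% interval -0.06 to 0.14, adjusted p = 0.809 by edgeR's likelihood ratio test) and -0.03 for *Wnt3* (interval -0.16 to 0.09, adjusted p = 0.886). For *Wnt3a* it was 0.03 (interval -0.11 to 0.16, adjusted p = 0.914) and for *Wnt4* -0.17 (interval -0.42 to 0.08, adjusted p = 0.611). The intervals of *Wnt8a* and *Wnt3* exclude a further change as large as the first one, and that of *Wnt4* is wide. *Cyp26a1*, an RA-degrading enzyme gene, did rise further, from 178 ± 0.00212 RPKM at 25 nM RA to 278 ± 8.17 at 1 µM RA (logFC 0.64, SE 0.049, adjusted p = 3.37e-35 by edgeR's likelihood ratio test).

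Of the other 10 Wnt family genes, 7 passed the filter on low counts and 2 of these, *Wnt7b* and *Wnt16*, were called higher at both doses. *Wnt16*, a ligand known from bone and blood development, had 0.203 ± 0.0262 RPKM in DMSO, 0.411 ± 0.0511 at 25 nM and 0.522 ± 0.0147 at 1 µM RA (logFC 1.01 and 1.34, SE 0.323 and 0.312, adjusted p = 0.0245 and 1.24e-04 by edgeR's likelihood ratio test). *Wnt7b*, a ligand of lung and vessel development, had 0.554 ± 0.140, 0.819 ± 0.126 and 0.842 ± 0.0573 RPKM (logFC 0.54 and 0.58, SE 0.173 and 0.172, adjusted p = 0.0288 and 0.00683). By DESeq2 the adjusted p of *Wnt16* was 0.506 and 0.0513 and that of *Wnt7b* 0.408 and 0.133, so that of these 4 calls only that of *Wnt16* at 1 µM RA passed there. Even with RA both stayed below the mean level of *Wnt11*. *Wnt2* with 2.45 ± 0.0551 and *Wnt2b* with 2.38 ± 0.157 RPKM in DMSO were more abundant than *Wnt11*, *Wnt4* and *Wnt10a*, and neither was called. *Wnt9a*, *Wnt9b* and *Wnt7a* had 0.285 ± 0.0396, 0.408 ± 1.26e-04 and 0.127 ± 0.0413 RPKM in DMSO and were not called at either dose.

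Several Wnt genes lie in pairs on the genome, and in 3 such pairs 1 gene was called and its neighbour was not. *Wnt3* lies 24.4 kb from *Wnt9b* and *Wnt3a* 16.2 kb from *Wnt9a*, all on chromosome 11, and *Wnt6* lies 6.70 kb from *Wnt10a* on chromosome 1. *Wnt9b* had a logFC of -0.22 (SE 0.208) and -0.05 (SE 0.203) beside the called falls of *Wnt3*. *Wnt9a* had 0.61 (SE 0.233, adjusted p = 0.107 by edgeR's likelihood ratio test) and 0.30 (SE 0.241) beside the called rises of *Wnt3a*. At 25 nM RA *Wnt9a* thus narrowly missed the call, with a larger logFC than the 0.18 of *Wnt3a* (adjusted p = 0.0893 by the same test). *Wnt10a* had -0.20 (SE 0.251) and -0.07 (SE 0.246) beside 0.29 (called) and 0.23 (not called) for *Wnt6*. The SEs of these low neighbours are wide, and no difference within a pair was tested.

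The remaining Wnt pathway genes were counted from lists by role. Some genes, among them *Lef1*, *Axin2* and *Dkk1*, stand in several lists and were counted once in the totals over all lists. Over all 78 listed genes other than the 9 ligands, the other Wnt ligands included, 69 were tested: 6 were called higher and 13 lower at 25 nM RA, and 9 higher and 26 lower at 1 µM RA, with median logFC of -0.08 and -0.09. Of all genes tested, 4.5% were called higher and 3.55% lower at 25 nM RA, and at 1 µM RA 8.54% and 11.2%, and the counts of each list below stand against these shares. Between the doses 12 of the 69 were lower at 1 µM RA and none higher, where 3.41% of all genes were called in either direction. The 12 became 3 by DESeq2 and 2 without 25 nM RA replicate 1.

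For Wnt secretion, 1 of 6 genes tested was higher and 1 lower at 25 nM RA, and 1 higher and 2 lower at 1 µM RA. *Porcn*, the acyltransferase that attaches the lipid a Wnt needs to leave the cell, rose from 2.91 ± 0.127 to 4.10 ± 0.378 and 4.62 ± 1.51e-04 RPKM (logFC 0.48 and 0.69, adjusted p = 2.69e-05 and 9.5e-12 by edgeR's likelihood ratio test). The glypican *Gpc4*, a surface carrier of Wnts, fell by 0.35 and 0.53 on the log2 scale (adjusted p = 0.0198 and 2.16e-05), and *Gpc6* by 0.23 at 1 µM RA (adjusted p = 0.00424). The fall of *Gpc4* at 25 nM RA did not pass by DESeq2 (adjusted p = 0.374). *Gpc3* was the most abundant of the list with 41.6 ± 1.19 RPKM in DMSO.

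Of 16 receptor genes tested, 1 was higher and 3 lower at 25 nM RA, and 2 higher and 7 lower at 1 µM RA. *Ror2*, a receptor for *Wnt5a*, rose from 8.50 ± 0.393 to 11.4 ± 0.143 and 10.3 ± 0.302 RPKM (logFC 0.43 and 0.28, adjusted p = 7.57e-12 and 2.87e-05). The Frizzled gene *Fzd10* fell by 0.20 and 0.36 on the log2 scale (adjusted p = 0.00982 and 3.33e-09), *Fzd1* by 0.25 and 0.34 (adjusted p = 0.053 and 9.77e-04) and *Fzd5* by 0.27 at 1 µM RA (adjusted p = 0.00156). The fall of *Fzd1* at 25 nM RA did not pass by DESeq2 (adjusted p = 0.464). *Ptk7*, a co-receptor in planar polarity, was the most abundant with 82.8 ± 1.63 RPKM in DMSO. The adjusted p-values are from the likelihood ratio test of edgeR except where DESeq2 is named.

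Secreted proteins also bind Wnts or tune their receptors. Of 9 tested genes listed as secreted inhibitors, 2 were lower at 25 nM RA, and 3 lower and 1 higher at 1 µM RA. Whether each listed protein inhibits Wnts in these cells was not tested. *Cer1*, which also stands among the endoderm markers below, fell by 0.52 and 0.40 (adjusted p = 8.39e-12 and 1.44e-07). *Dkk1* fell by 0.64 at 1 µM RA (adjusted p = 6.35e-07) and *Frzb*, the most abundant with 29.4 ± 0.0933 RPKM in DMSO, by 0.15 at 25 nM RA (adjusted p = 0.0333), all on the log2 scale. *Sfrp2* fell by 0.28 at 1 µM RA on the same scale (adjusted p = 0.049) but did not pass by DESeq2 (adjusted p = 0.261). Of 6 genes of the R-spondin axis, which raises the number of Frizzled receptors at the surface, 1 was lower at each dose. This was *Rspo3*, with 13.3 ± 0.0164 RPKM in DMSO, 9.52 ± 0.505 at 25 nM and 8.93 ± 0.432 at 1 µM RA (adjusted p = 9.18e-12 and 3.91e-17). *Lgr4*, a receptor of R-spondins, was the most abundant of that list with 19.0 ± 0.227 RPKM. The adjusted p-values are again from edgeR's likelihood ratio test except where DESeq2 is named.

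Of 14 genes of the beta-catenin cascade, 2 were lower at 25 nM RA, and 8 lower and 1 higher at 1 µM RA. *Lef1*, a DNA-binding partner of beta-catenin, fell by 0.28 and 0.58 on the log2 scale (adjusted p = 3.5e-05 and 1.36e-21). *Gsk3b*, a kinase of the beta-catenin destruction complex, fell by 0.23 and 0.38 (adjusted p = 4.6e-04 and 4.47e-11). *Dvl3*, which relays the signal from Frizzled, fell by 0.62 and *Axin2*, a feedback inhibitor, by 0.26 at 1 µM RA (adjusted p = 5.81e-06 and 2.35e-05). *Ctnnb1*, beta-catenin itself, was the most abundant with 241 ± 1.32 RPKM in DMSO. It was the gene called higher at 1 µM RA, with 263 ± 9.12 RPKM (logFC 0.11, adjusted p = 0.0842 by edgeR's likelihood ratio test). Of 17 target genes tested, 2 were higher and 5 lower at 25 nM RA, and 2 higher and 8 lower at 1 µM RA. *Cdx1*, a caudal homeobox gene, rose by 1.77 and 1.94 (adjusted p = 5.85e-95 and 1.16e-114), whereas *Myc* fell by 0.60 and 0.90 (adjusted p = 3.42e-10 and 2.45e-22) and *Msgn1* by 0.50 and 0.90 (adjusted p = 3.54e-08 and 1.57e-24). *T*, the most abundant target, had 375 ± 6.98 RPKM in DMSO and was not called. The test was again edgeR's likelihood ratio test, and several of the targets are also markers of mesoderm or controlled by other signals.

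**Figure D5:**
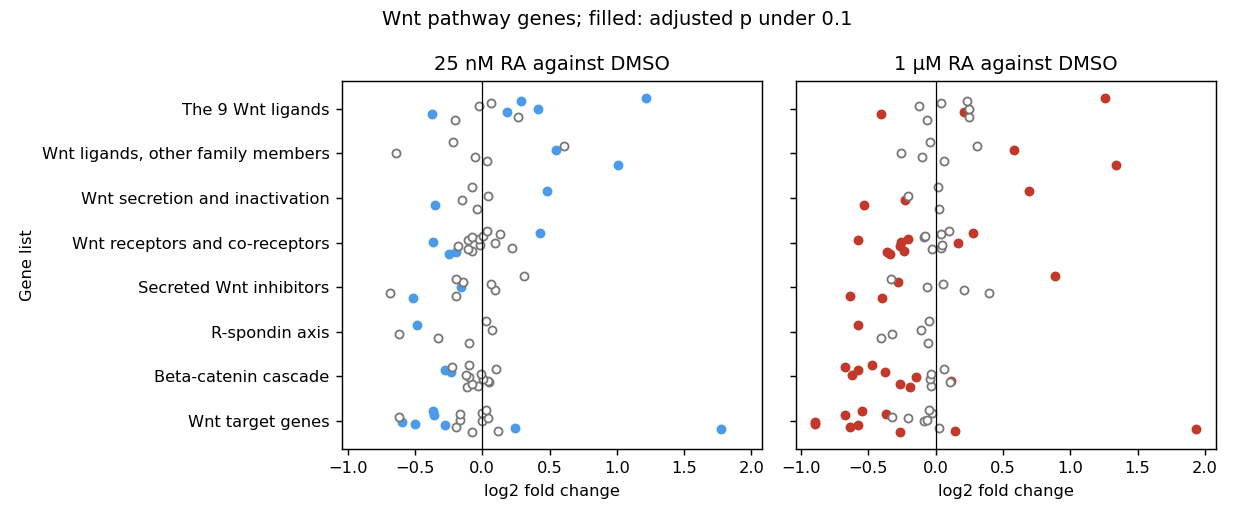
LogFC at 25 nM RA (left) and 1 µM RA (right) against DMSO of every tested gene of each Wnt pathway list; each point is a gene, set apart vertically for legibility, and filled points have an adjusted p under 0.1. The 9 ligands show *Wnt8a* far to the right at both doses. In the receptor, cascade and target lists more of the filled points lie left of 0. Over all lists but the 9 ligands, 26 of the 35 genes called at 1 µM RA were lower. A gene in several lists has a point in each.

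Markers of other cell types moved in the same samples. Presomitic mesoderm markers summed to 39.2 to 39.4 RPKM in DMSO, 30.4 to 32.9 at 25 nM and 25.3 to 27.6 at 1 µM RA over 5 genes, of which *Tbx6* and *Msgn1* were called lower at both doses and *Hes7* at 1 µM RA, and *Tcf15* and *Meox1* higher at both. Endoderm markers summed to 46.1 to 47.9 RPKM in DMSO, 35.3 to 35.5 at 25 nM and 33.9 to 34.6 at 1 µM RA. All 4 of the 5 endoderm markers that were tested were called lower at both doses, and the fifth, *Afp*, stayed at or below 0.102 RPKM. Their part in the rise of *Wnt8a* or the fall of *Wnt3* was not tested.

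The genes whose pattern over the 6 samples was nearest to that of *Wnt8a* and *Wnt3* were found by Euclidean distance of log2(CPM + 0.5), centred on each gene's mean, among 11125 genes with a mean of at least 1 RPKM. Nearest to *Wnt8a* were *Erf*, an ETS-family repressor, at a distance of 0.128, *Sox13* at 0.172 and *Chsy1* at 0.188. *Erf* had 16.0 ± 0.221 RPKM in DMSO, 36.1 ± 1.92 at 25 nM and 38.8 ± 0.283 at 1 µM RA. Nearest to *Wnt3* were *Bmp2*, a secreted ligand of the BMP family, at 0.0568, *Zfp516* at 0.0757 and *Nab2* at 0.0867. *Bmp2* had 1.44 ± 0.0216, 1.06 ± 0.00693 and 1.07 ± 0.0176 RPKM. A distance describes likeness over 6 samples and carries no test.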

How the data were processed

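RNA was measured in 6 samples of ESC-derived NMPs in 3 conditions, grouped by the sample labels. For each of 30352 RefSeq transcripts the authors deposited an estimated count, which is not normalized and often not whole, and an RPKM value scaled by transcript length and mapped reads. The submitters' processing notes name FastQC 0.11, TopHat2 2.0.13, Bowtie2 2.2.5.0, Partek 6.6 and the mm10 build, and the methods describe ribosomal RNA depletion, a stranded kit, single-end reads and expectation-maximization. The split between transcripts of a gene is therefore an estimate. The stop positions in the files lie 1 base past the last base and were corrected for.

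Estimated counts were summed per gene, rounded and fitted for all 6 samples in edgeR 4.0.16 (R 4.3.3) with TMM, filterByExpr and the likelihood ratio test, with p-values adjusted by Benjamini-Hochberg over 15143 genes. Errors are SDs for RPKM and SEs of the fit for logFC, and intervals are at 95%. The test was also run on counts simulated with the spread estimated from these same samples, which cannot show whether that spread is right. DESeq2 1.42.0, edgeR's quasi-likelihood test, total counts, size factors, other filters, transcripts fitted singly, fewer samples and the replicate number as a block were alternatives. Python 3.11.15 served for tables and figures, with numpy 2.4.6, pandas 2.3.3 and matplotlib 3.10.9.

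The 9 ligands and all gene lists were chosen with earlier results of these data known. All 9 are described, with the most abundant gene and up to 4 called genes of smallest adjusted p from each list, other Wnt genes reaching a mean of 0.1 RPKM, the 3 genes nearest in pattern to the most strongly called ligand in each direction, and *Rarb* and *Cyp26a1*. With 2 samples per condition no permutation test of single genes can reach a small p, and none was made. Intervals cover the spread of the fit only.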

Additional observations from a re-analysis of the deposited data

How the results depend on the processing

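*Wnt8a* and *Wnt3* kept their direction and their call at both doses under every alternative tried, with each sample left out in turn included (logFC 1.19 to 1.25 and 1.21 to 1.31 for *Wnt8a*, -0.41 to -0.33 and -0.44 to -0.36 for *Wnt3*). The number of ligands called at 25 nM RA was 5, but 3 by the quasi-likelihood test, 2 by DESeq2, 2 with transcripts fitted singly, 3 at an adjusted p under 0.05 and 2 to 5 with a sample left out. It was 2 without DMSO replicate 1 or 25 nM RA replicate 1 and 3 without DMSO replicate 2. Pathway genes called at 25 nM RA numbered 19, but 13 by DESeq2, 12 with transcripts fitted singly and 23 with only the 4 samples compared. Between the doses they numbered 12, but 7 by the quasi-likelihood test, 3 by DESeq2, 2 with transcripts fitted singly and 2 to 10 with a sample left out. It was 2 without 25 nM RA replicate 1, 7 without 25 nM RA replicate 2 and 6 without either 1 µM RA replicate. The cause was not tested.

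Small values changed sign, none of them called. *Wnt5a* at 25 nM RA was 0.115 with transcripts fitted singly and -0.066 to 0.021 with a sample left out. *Wnt10a* ranged from -0.54 to 0.11 at 25 nM RA and from -0.26 to 0.20 at 1 µM RA in that way. Between the doses the ranges were -0.045 to 0.096 for *Wnt3a*, -0.058 to 0.014 for *Wnt5b* (0.032 with transcripts fitted singly), -0.149 to 0.034 for *Wnt6*, -0.012 to 0.089 for *Wnt8a*, -0.176 to 0.471 for *Wnt10a* and -0.122 to 0.082 for *Wnt11*.

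Same-numbered samples did not deviate together (correlations -0.044, 0.0487 and -0.0593). This does not show whether same-numbered dishes were handled together. With the replicate number as a block, 5, 3 and 0 ligands and 20, 34 and 9 pathway genes were called at 25 nM RA, at 1 µM RA and between the doses. *Wnt4*, *Wnt10a* and *Wnt11* had under 200 estimated counts per sample, which limits the precision of their logFC.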
